A study of Mus musculus with 6 samples.

Results

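The desmosomal cadherins of mouse are the desmogleins and the desmocollins, and corneodesmosin is the glycoprotein that joins them in the uppermost epidermis. The members described here are Dsg1a, Dsg1b, Dsg1c, Dsg2, Dsg3 and Dsg4, the desmocollins Dsc1, Dsc2 and Dsc3, and Cdsn. They were chosen by symbol, with the row of highest mean taken for each symbol, which gave 10 of the 49386 gene symbols in the table. Each of these symbols had 1 row.

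Desmosomes are adhesive plaques that couple the keratin filaments of neighbouring cells. The extracellular parts of a desmoglein and a desmocollin bind their counterparts on the next cell, and their tails bind plakoglobin and plakophilins, which link them to desmoplakin and keratin. In stratified epidermis the isoforms are layered. Dsg3 and Dsc3 are strongest in the basal and lower spinous cells, Dsg1 and Dsc1 dominate towards the surface, and corneodesmosin is secreted by granular cells and holds corneocytes together until proteases cut it. Dsg2 and Dsc2 are the isoforms of simple epithelia and heart and are also made in the lower epidermis. Dsg4 is known from the hair shaft and the upper epidermis.

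The skin epidermis of C57BL/6 embryos of stage E19.5 was sequenced as RNA in 3 libraries labelled Rictor -/- (titled ricEKO) and 3 labelled Control (titled ctrl). Rictor is a defining subunit of mTOR complex 2, and the comparison asks which mRNAs change in epidermis without it. The labels do not say how the deletion was made or whether each library came from its own animal, so the p-values cover the spread between these libraries, which may be technical. Values are FPKM, fragments scaled by transcript length and library size, so levels of different genes are given per length.

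Rictor itself read 6.83, 7.04 and 6.86 FPKM in knockout-labelled libraries 263, 265 and 266, against 5.63, 6.02 and 4.37 FPKM in control-labelled libraries 261, 262 and 264. It was thus not lower in the libraries labelled knockout (limma adjusted p = 0.0694). Exons that a deletion leaves in place still add to a whole-gene FPKM, so the labels remain unchecked by this value, and every direction given here is that of the labels. The epidermal origin was borne out by Krt1, Krt5, Krt10 and Krt14, of which the lowest value in any library was 2352 FPKM, while 5 of 5 endothelial markers stayed under 1 FPKM in all 6. Fibroblast markers were present, of which 2 of 4 tested rose, and their summed level, mostly that of Dcn, ran from 124 to 159 FPKM in the knockout-labelled and from 114 to 142 FPKM in the control-labelled libraries. Control 264 stood apart in a trend with gene length. Across genes, Spearman's rho of a library's deviations with exonic length was 0.173 to 0.263 in the knockout-labelled libraries, and -0.00709, 0.00280 and -0.358 in controls 261, 262 and 264.

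Of the 10 members 9 reached a mean of 1 FPKM in at least 1 group and were tested with limma on log2(FPKM + 1), with p-values adjusted by Benjamini-Hochberg over all 13500 tested genes. Dsg3, Dsc2, Dsg1b and Dsg2 rose in the knockout-labelled libraries and Dsg1a and Dsg4 fell. Dsc1, Dsc3 and Cdsn did not pass the threshold of 0.05, and Dsg1c was too low to be tested. That is 4 higher and 2 lower, where 7.91% of all tested genes were called higher and 15.6% lower, 23.5% in all. After trimmed mean scaling of the libraries 50.1% of called genes were higher, against 33.7% as deposited, so the balance over all genes depended on scaling. The 6 called members had groups that did not overlap, as had 45.8% of all tested genes. The median log2 difference was 0.15 over the 9 tested members and -0.06 over all tested genes.

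**Figure D1:**
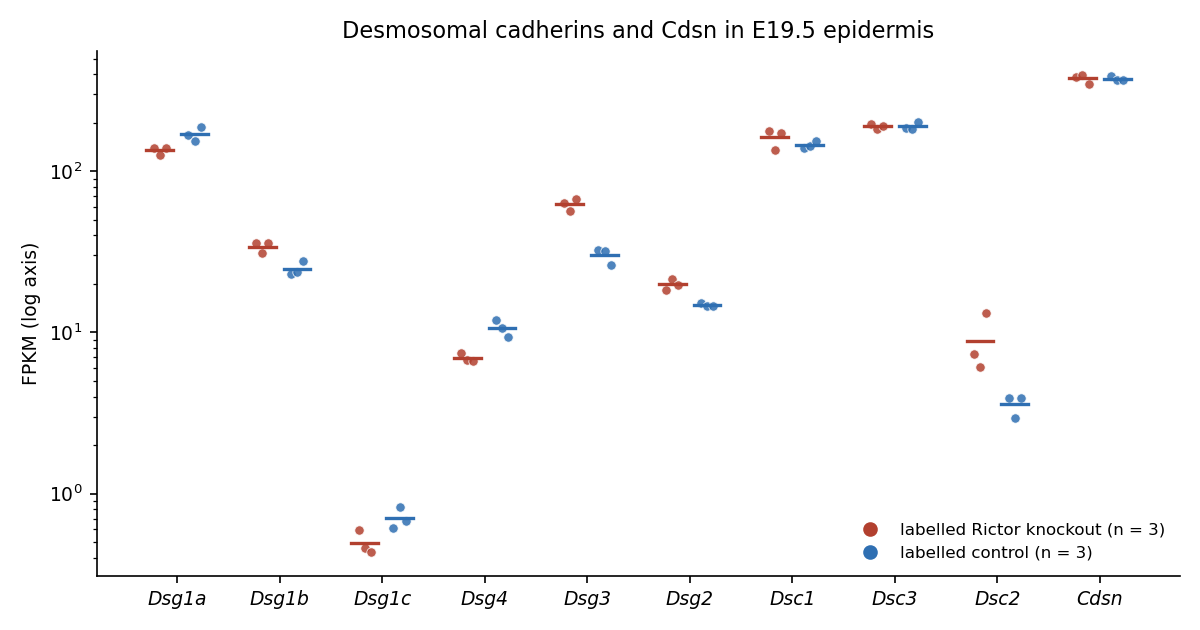
FPKM of each desmoglein, desmocollin and Cdsn on a log axis, 1 point per library (3 labelled Rictor knockout in red, left, and 3 labelled control in blue, right), with bars at the group means. Dsg3 and Dsc2 stand higher in all 3 knockout-labelled libraries, Dsg1a and Dsg4 lower, and Cdsn and Dsc3 lie level.

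Cdsn was the most abundant member, with means of 377 FPKM in the knockout-labelled and 376 FPKM in the control-labelled libraries, and Dsg1c the least. In the knockout-labelled libraries the order of the means ran from Cdsn through Dsc3, Dsc1, Dsg1a, Dsg3, Dsg1b, Dsg2, Dsc2 and Dsg4 to Dsg1c. Neighbours in this order overlapped between libraries only for Dsc1 with Dsg1a and for Dsc2 with Dsg4. In the control-labelled libraries Dsg1a stood above Dsc1 and Dsg4 above Dsc2. There Dsc3 overlapped Dsg1a, Dsg1a overlapped Dsc1, and Dsg3 overlapped Dsg1b.

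Among the lower-layer desmogleins, Dsg3 (ENSMUSG00000056632, GRCm38 chromosome 18, 20510274 to 20547459, plus strand), the antigen of pemphigus vulgaris, had the smallest p-value of the members. It stood at 63.1, 56.5 and 67.5 FPKM in knockout-labelled libraries 263, 265 and 266, against 32.4, 31.8 and 26.2 FPKM in control-labelled libraries 261, 262 and 264. The lowest knockout-labelled library was far above the highest control-labelled one. Mean FPKM was 62.4 ± 5.56 in the knockout-labelled and 30.1 ± 3.45 in the control-labelled libraries (SD, n = 3 each), a 2.07-fold ratio of means. The log2(FPKM + 1) difference was 1.03 ± 0.11 (SE), with a limma adjusted p of 0.00272. Under all 18 alternative settings it stayed between 0.93 and 1.10 and past the threshold set.

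Of the basal keratins measured, Krt14 and Krt5 rose and Krt15 fell. Krt14 differed by 1.20 ± 0.14 and Krt5 by 0.57 ± 0.10 on the log2 scale (limma adjusted p = 0.00373 and 0.00972). Krt15 stood at 854, 993 and 1098 FPKM in the knockout-labelled libraries, against 1605, 1862 and 1396 FPKM in the control-labelled ones (limma adjusted p = 0.0148). Relative to Krt14, Dsg3 stood at 0.914, 1.10 and 1.16 FPKM per 100 FPKM in the knockout-labelled libraries, against 1.30, 1.35 and 0.903 in the control-labelled ones, and the groups overlapped. Relative to Krt5 it stood at 1.17, 1.11 and 1.31 in the knockout-labelled libraries, against 0.955, 0.948 and 0.690 in the control-labelled ones, which did not overlap. Krt15 was lower and Dsg3 higher in the knockout-labelled libraries, each without overlap, so a ratio of Dsg3 to Krt15 would be higher there without overlap. Whether Dsg3 kept pace with the basal keratins therefore depends on the keratin chosen. In a bulk sample more cells of a type and more RNA per cell cannot be told apart.

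Dsg2 (ENSMUSG00000044393, chromosome 18, 20558074 to 20604521, plus strand) also rose. It stood at 18.4, 21.5 and 19.8 FPKM in the knockout-labelled libraries 263, 265 and 266, against 15.2, 14.5 and 14.6 FPKM in the control-labelled libraries 261, 262 and 264. The control-labelled values lay within 1 FPKM of each other, below every knockout-labelled one. This gave a log2 difference of 0.41 ± 0.07 (SE; limma adjusted p = 0.0112). An annotated antisense gene, Gm16090, overlaps the end of Dsg2, and the sources used here do not say whether the counting used strand, so reads of the 2 genes may be mixed. Gm16090 itself, which did not pass (limma adjusted p = 0.0727), stood at 1.81 to 2.16 FPKM in the knockout-labelled and 1.20 to 1.54 FPKM in the control-labelled libraries. Of 4 tested markers of simple epithelium and periderm, where Dsg2 is also made, 1 rose and 0 fell (0 and 0 without control 264), and their list summed to 15.4 to 16.8 FPKM in the knockout-labelled and 16.9 to 19.4 FPKM in the control-labelled libraries.

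The Dsg1 genes are the desmogleins of the upper layers, known as the antigen of pemphigus foliaceus and the target of staphylococcal exfoliative toxins. Mouse carries Dsg1a, Dsg1b and Dsg1c side by side, and their transcripts share sequence. Of the 50-base words of the annotated Dsg1b transcript 45.5% also occur in that of Dsg1a and 25.0% in that of Dsg1c. Of those of Dsg1a 31.6% occur in Dsg1b and 18.8% in Dsg1c. The sources used here do not say how reads shared by these copies were split, so the values of the single Dsg1 genes are uncertain. No other member shares a 50-base word with another member.

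Dsg1a (ENSMUSG00000069441, chromosome 18, 20310811 to 20343350, plus strand) was the most abundant desmoglein in every library. It stood at 139, 126 and 139 FPKM in knockout-labelled libraries 263, 265 and 266, against 167, 153 and 189 FPKM in control-labelled libraries 261, 262 and 264. The groups were separate by a gap that was small beside the spread of the control-labelled values. Mean FPKM was 135 ± 7.23 in the knockout-labelled and 170.0 ± 18.1 in the control-labelled libraries (SD, n = 3 each). On the log2 scale the difference was -0.33 ± 0.09 (SE), with a limma adjusted p of 0.0465, the closest to the threshold among the called members. The call was lost after median or trimmed mean scaling (limma adjusted p = 0.0592 and 0.0550), without a filter on low values (0.0878) and without an intensity trend (0.0523). It was also lost without knockout-labelled 263, 265 or 266 or control-labelled 261 (limma adjusted p = 0.109, 0.140, 0.108 and 0.108).

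Dsg1b (ENSMUSG00000061928, chromosome 18, 20376729 to 20410196, plus strand) went the other way. It stood at 35.7, 30.9 and 35.8 FPKM in the knockout-labelled libraries, against 23.0, 23.6 and 27.5 FPKM in the control-labelled ones, with no overlap. The log2 difference was 0.45 ± 0.09 (SE; limma adjusted p = 0.0184). Its call was lost without knockout-labelled 263 or 266 (adjusted p = 0.0704 and 0.0695) or without control-labelled 261 or 262 (0.0615 and 0.0522), with the difference between 0.40 and 0.42. Dsg1b made up 20.4%, 19.6% and 20.4% of summed Dsg1a, Dsg1b and Dsg1c FPKM in the knockout-labelled libraries, against 12.1%, 13.3% and 12.7% in the control-labelled ones. Dsg1c (ENSMUSG00000034774, chromosome 18, 20247340 to 20285031, plus strand) stood at 0.591, 0.458 and 0.435 FPKM in the knockout-labelled libraries, against 0.613, 0.829 and 0.674 FPKM in the control-labelled ones, under the minimum of the test.

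The sum of the 3 Dsg1 genes, in which a misassignment between the copies partly cancels, was 175, 158 and 175 FPKM in the knockout-labelled libraries. It was 191, 178 and 217 FPKM in the control-labelled libraries. The ratio of means was 0.866, and the highest knockout-labelled value lay just under the lowest control-labelled one. No p-value is given for a sum over members. The sum was not recomputed under the other scalings, so whether this narrow gap would hold there was not tested.

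Dsg4 (ENSMUSG00000001804, chromosome 18, 20436175 to 20471821, plus strand), whose loss causes the lanceolate hair phenotype of mice, fell. It stood at 7.45, 6.72 and 6.69 FPKM in the knockout-labelled libraries 263, 265 and 266, against 11.9, 10.7 and 9.32 FPKM in the control-labelled libraries 261, 262 and 264. The knockout-labelled values lay close together, below all control-labelled ones. Dsg4 differed by -0.55 ± 0.10 on the log2 scale (SE; limma adjusted p = 0.0108), and it stayed past the threshold set under all 18 alternative settings.

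Hair follicle keratins fell in the same libraries. Of 10 tested follicle markers 9 fell and 0 rose, with a median log2 difference of -0.91, and without control 264 these counts were 10 and 0. Their summed level was 1094 to 1265 FPKM in the knockout-labelled and 1826 to 2294 FPKM in the control-labelled libraries. Per 100 FPKM of these markers, Dsg4 stood at 0.589, 0.601 and 0.612 FPKM in the knockout-labelled libraries, against 0.520, 0.587 and 0.424 FPKM in the control-labelled ones. This ratio was higher in the knockout-labelled libraries without overlap, though the lowest knockout-labelled value, 0.589, lay just above the highest control-labelled value, 0.587. The log2 difference of Dsg4, -0.55, was smaller in size than the follicle marker median of -0.91. With a pseudocount of 0.1 that of Dsg4 was -0.60. The pseudocount of 1 shrinks the difference of a low gene such as Dsg4 more than those of abundant markers. The part of follicle content in the fall of Dsg4 was not tested.

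Dsc3 (ENSMUSG00000059898, chromosome 18, 19960930 to 20002351, minus strand), the desmocollin of the lower layers, did not pass the test. It stood at 196, 182 and 191 FPKM in the knockout-labelled libraries, against 185, 183 and 202 FPKM in the control-labelled ones, and the ranges overlapped. The log2 difference was 0.00 ± 0.07 (SE; limma adjusted p = 0.981), with its sign changing between settings and its size at most 0.07. Per 100 FPKM of Krt14, Dsc3 stood at 2.83, 3.55 and 3.29 FPKM in the knockout-labelled libraries, against 7.42, 7.79 and 6.96 FPKM in the control-labelled ones. Per 100 FPKM of Krt5 the values were 3.62, 3.57 and 3.72 FPKM in the knockout-labelled libraries and 5.46, 5.46 and 5.32 FPKM in the control-labelled ones. Both ratios were lower in all 3 knockout-labelled libraries, in which Krt14 and Krt5 were higher and Dsc3 itself was level. Krt15 was lower in these libraries, so a ratio of Dsc3 to Krt15 would go the other way.

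Dsc2 (ENSMUSG00000024331, chromosome 18, 20030633 to 20059554, minus strand) rose from low levels, with a 2.46-fold ratio of means. It stood at 7.37, 6.07 and 13.1 FPKM in knockout-labelled libraries 263, 265 and 266, against 3.89, 2.96 and 3.93 FPKM in control-labelled libraries 261, 262 and 264. Library 266 lay far above the other two knockout-labelled libraries, which were themselves above every control-labelled one. On the log2 scale Dsc2 differed by 1.04 ± 0.25 (SE; limma adjusted p = 0.0279), and without 266 it was 0.75 (adjusted p = 0.0294), below the 0.97 of Dsg3 without that library. With a pseudocount of 5 it was 0.66. The call was lost without a filter (adjusted p = 0.0772), without knockout-labelled 263 (0.0635) and without control-labelled 261 or 262 (0.0648 and 0.0728).

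The collagens Col1a1 and Col1a2, markers of fibroblasts, rose as well. Of 4 tested fibroblast markers 2 rose and 0 fell, with a median of 0.71 on the log2 scale, and these counts were 3 and 0 without control 264. Col1a1 stood at 6.28, 6.00 and 10.7 FPKM in libraries 263, 265 and 266, against 3.11, 3.68 and 4.05 FPKM in libraries 261, 262 and 264 (limma adjusted p = 0.0251). Col1a2 differed by 0.56 on the log2 scale (limma adjusted p = 0.0184). Col3a1, which did not pass (limma adjusted p = 0.0708), stood at 11.3, 10.1 and 20.4 FPKM in the knockout-labelled libraries, against 5.18, 6.64 and 9.27 FPKM in the control-labelled ones. Dcn, which made up most of the summed level of the list, did not pass (limma adjusted p = 0.731). It stood at 97.3, 132 and 104 FPKM in libraries 263, 265 and 266, against 98.9, 96.4 and 121 FPKM in libraries 261, 262 and 264. Among the knockout-labelled libraries Dcn was highest in 265 and Col1a1 in 266, and the order of 3 libraries cannot link or separate genes. Of the 6 fibroblast markers, Lum and Pdgfra were under 1 FPKM in every library. Muscle markers, 3 of 5 of which were tested and 0 called, summed to 2.69, 4.12 and 8.88 FPKM in the knockout-labelled libraries 263, 265 and 266, against 2.66, 4.93 and 5.86 FPKM in the control-labelled libraries. The part of fibroblast or muscle RNA in the Dsc2 value was not tested.

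Krt6a, Krt6b and Krt16, keratins of wounded or activated epidermis, had larger differences than any member. Of 4 wound keratins 4 rose and 0 fell, with a median of 4.59 on the log2 scale, and the counts without control 264 were the same. Krt6a stood at 1520, 698 and 1156 FPKM in knockout-labelled libraries 263, 265 and 266, against 52.8, 42.9 and 43.7 FPKM in control-labelled libraries 261, 262 and 264, a 24.2-fold ratio of means (limma adjusted p = 0.000502). Krt6b and Krt16 had ratios of 93.2-fold and 26.4-fold and Krt17 of 1.55-fold (limma adjusted p = 0.000644, 0.000865 and 0.0226). Among the knockout-labelled libraries all 4 were highest in 263, as were Dsc1, Dsc3 and Dsg4. Dsg2 and Cdsn were highest in 265, and Dsc2 and Dsg3 in 266. An order of so few libraries cannot link or separate genes. The summed level of the list was 3795 to 7105 FPKM in the knockout-labelled and 1112 to 1478 FPKM in the control-labelled libraries, and its part in the values of the members was not tested.

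Dsc1 (ENSMUSG00000044322, chromosome 18, 20084184 to 20114871, minus strand), the desmocollin of the upper layers, stood at 178, 136 and 172 FPKM in the knockout-labelled libraries. It stood at 139, 143 and 155 FPKM in the control-labelled libraries, and the value of 265 lay below all of these. The log2 difference was 0.15 ± 0.11 (SE), not past the threshold (limma adjusted p = 0.382). It passed only with array weights, at 0.24 (adjusted p = 0.0487).

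Cdsn (ENSMUSG00000039518, chromosome 17, 35552128 to 35557180, plus strand) stood at 386, 398 and 348 FPKM in knockout-labelled libraries 263, 265 and 266, against 392, 366 and 370.2 FPKM in control-labelled libraries 261, 262 and 264. The knockout-labelled libraries took both the highest and the lowest of the 6 values. The log2 difference was 0.00 ± 0.08 (SE; limma adjusted p = 0.985), and over the alternative settings it ran from -0.07 to 0.10.

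**Figure D2:**
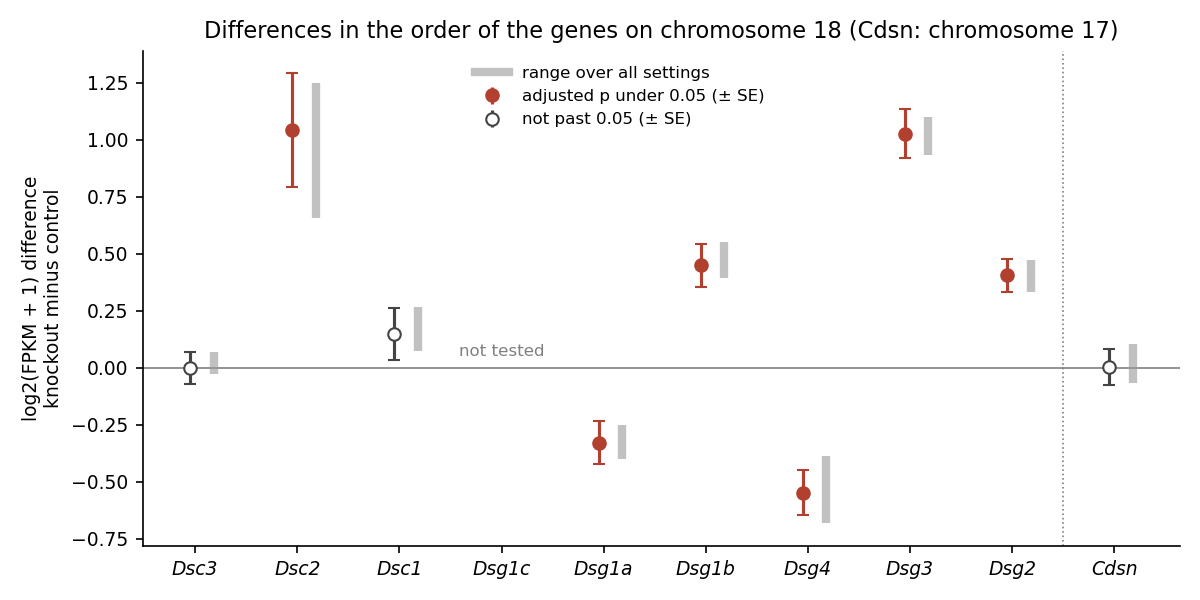
Log2(FPKM + 1) differences, knockout-labelled minus control-labelled (points with SE bars; filled red where the limma adjusted p is under 0.05), in the order of the genes on chromosome 18, with Cdsn of chromosome 17 at the right; grey bars span all settings tried. Dsg1a at -0.33 lies next to Dsg1b at 0.45, and Dsg4 at -0.55 next to Dsg3 at 1.03. Dsg3 and Dsg2, at 0.41, lie side by side with the same sign.

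The 9 cadherin genes lie together on chromosome 18 within 644 kb (19960930 to 20604521) and are the only protein-coding genes annotated inside that span. The desmocollins run on the minus strand and the desmogleins on the plus strand. The 9 genes did not move as a block. Dsc2, which rose, lies between Dsc3 and Dsc1, which did not pass, and Dsg4, which fell, lies between Dsg1b and Dsg3, which rose. Dsg3 and Dsg2, neighbours at the end of the span, both rose. Of the next 3 protein-coding genes past Dsg2, Ttr and B4galt6 were under 1 FPKM in every library, and Trappc8 differed by 0.03 on the log2 scale (limma adjusted p = 0.725).

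The make-up of the desmogleins differed between the labels, while their summed level overlapped. Summed desmoglein FPKM was 264, 242 and 269 in the knockout-labelled libraries and 251, 235 and 267 in the control-labelled ones. Dsg3 accounted for 23.9%, 23.3% and 25.1% of it in the knockout-labelled libraries, against 12.9%, 13.6% and 9.78% in the control-labelled ones. The difference of means was 12.0 percentage points, and it ran from 10.9 to 12.7 with single libraries left out. The Dsg1 genes together accounted for 66.3%, 65.1% and 65.1% in the knockout-labelled libraries, against 76.2%, 75.7% and 81.3% in the control-labelled ones. Neither share overlapped between the groups. Both are parts of the same total, so a rise of one share lowers the other.

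Among the desmocollins, Dsc3 made up 51.3%, 56.1% and 50.8% of summed desmocollin FPKM in the knockout-labelled libraries, against 56.5%, 55.7% and 56.0% in the control-labelled ones, and the groups overlapped. The share of Dsc2 was 1.93%, 1.87% and 3.48% in the knockout-labelled libraries, against 1.19%, 0.900% and 1.09% in the control-labelled ones. Summed desmocollin over summed desmoglein FPKM was 1.44, 1.34 and 1.40 in the knockout-labelled libraries and 1.31, 1.40 and 1.35 in the control-labelled ones. Of the 4 lower-layer members, Dsg2, Dsg3, Dsc2 and Dsc3, 3 rose and 0 fell. Of the 5 tested upper-layer members, Dsg1a, Dsg1b, Dsg4, Dsc1 and Cdsn, 1 rose and 2 fell. Of the called members, Dsg1a lost its call under 8 of the 18 alternative settings, and Dsc2 and Dsg1b each under 4. Over all tested genes 7.91% rose and 15.6% fell, and the difference between the 2 sets of members was not tested.

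**Figure D3:**
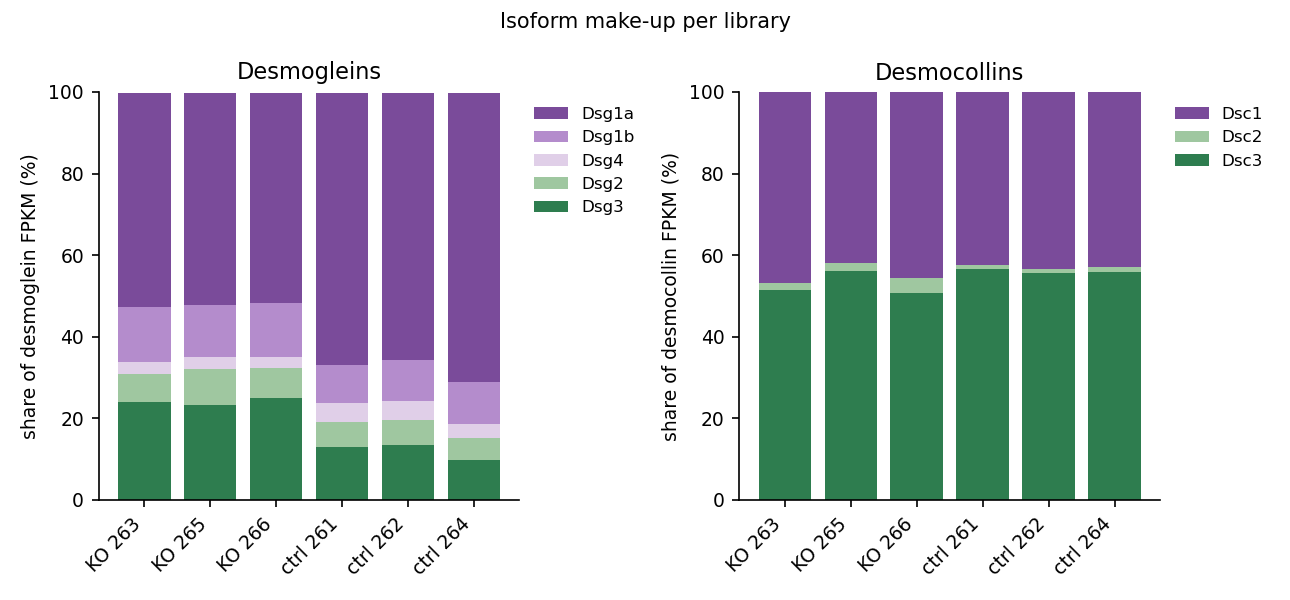
Share of each isoform in summed desmoglein FPKM (left) and summed desmocollin FPKM (right), in percent, 1 bar per library with the knockout-labelled libraries (KO) left of the control-labelled ones (ctrl); Dsg1c, under 1 FPKM in every library, is not drawn. The Dsg3 segment covers 23.3% to 25.1% in the knockout-labelled and 9.78% to 13.6% in the control-labelled libraries, while the Dsc3 segments overlap between groups.

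Among the intracellular partners of the cadherins, Pkp3 rose. Of 8 plaque and envelope genes 1 rose and 0 fell, with a median log2 difference of 0.17, and without control 264 the counts were the same. Over all tested genes 7.91% rose and 15.6% fell, shares that also belong beside the junction, protease and regulator counts below. Pkp3 is a plakophilin that binds cadherin tails and desmoplakin, and it stood at 317, 297 and 299 FPKM in the knockout-labelled libraries against 250.5, 247 and 245 FPKM in the control-labelled ones (limma adjusted p = 0.0197). Jup, which encodes plakoglobin, and Dsp, which encodes desmoplakin, differed by 0.27 ± 0.10 and 0.30 ± 0.14 on the log2 scale and did not pass (limma adjusted p = 0.0908 and 0.166). Perp, a tetraspan membrane protein of desmosomes, differed by -0.30 ± 0.10 and did not pass either (limma adjusted p = 0.0655). The remaining Pkp1, Pkp2, Evpl and Ppl differed by 0.24, -0.32, 0.10 and 0.00 and did not pass (limma adjusted p = 0.210, 0.0512, 0.556 and 0.996).

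Of 9 adherens junction genes 3 rose and 0 fell, with a median of 0.12 (3 and 1 without control 264). Vcl, the actin linker vinculin, stood at 22.7, 25.9 and 23.5 FPKM in the knockout-labelled libraries, against 15.1, 13.9 and 14.4 FPKM in the control-labelled ones (limma adjusted p = 0.00264). Ctnna1, which encodes alpha-catenin, and Nectin1, a cell adhesion molecule, rose by 0.30 and 0.33 on the log2 scale (limma adjusted p = 0.0379 and 0.0287). The classical cadherins Cdh1 and Cdh3 differed by 0.11 and 0.12 and did not pass (limma adjusted p = 0.275 and 0.163).

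Of 11 proteases and inhibitors that act on desmosomal or corneodesmosomal proteins 9 were tested, of which 1 rose and 3 fell (1 and 2 without control 264), with a median of -0.11. Spink5, which encodes the kallikrein inhibitor LEKTI, rose, at 163, 158 and 169 FPKM in the knockout-labelled libraries against 127, 136 and 109 FPKM in the control-labelled ones (limma adjusted p = 0.0260). Prss8, the membrane protease prostasin, fell, with means of 33.0 ± 3.77 FPKM in the knockout-labelled and 50.9 ± 3.82 FPKM in the control-labelled libraries (SD, n = 3 each; limma adjusted p = 0.00804). Ctsd, the lysosomal protease cathepsin D, and the kallikrein Klk8 fell by 0.36 and 0.39 on the log2 scale (limma adjusted p = 0.0159 and 0.0492). Klk5 and Klk7, the kallikreins that cut corneodesmosin, differed by -0.11 and -0.18 and did not pass (limma adjusted p = 0.391 and 0.205). Adam10 and Adam17, sheddases of desmogleins, differed by 0.01 and -0.06 (limma adjusted p = 0.930 and 0.566).

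Of 6 transcription factors reported to act on desmosomal cadherin genes 0 rose and 2 fell (0 and 3 without control 264), with a median of -0.13. Hoxc13, a factor of the hair follicle, averaged 19.1 ± 1.87 FPKM in the knockout-labelled and 28.1 ± 3.65 FPKM in the control-labelled libraries (SD, n = 3 each; limma adjusted p = 0.0194). Cebpa, a factor of epidermal differentiation, fell by 0.36 on the log2 scale (limma adjusted p = 0.0159). Grhl1, which binds the Dsg1a promoter in mice, and Trp63, the p63 gene of basal keratinocytes, differed by -0.11 and 0.10 and did not pass (limma adjusted p = 0.371 and 0.564). Klf5 and Cebpb differed by 0.01 and -0.14 and did not pass (limma adjusted p = 0.956 and 0.483).

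Of 7 lower-layer markers of the epidermis 5 rose and 1, Krt15, fell. Of 8 upper-layer markers 0 rose and 1 fell, beside 7.91% higher and 15.6% lower over all tested genes. Without control 264 the counts were 5 and 1, and 0 and 3, beside 1514 genes higher and 2270 lower of the 13478 tested in that setting. The upper-layer marker that fell was Casp14, a caspase of cornifying cells, at 125, 150.1 and 135 FPKM in the knockout-labelled libraries against 233, 230.0 and 233 FPKM in the control-labelled ones (limma adjusted p = 0.00291). Krt10, a keratin of suprabasal cells, differed by -0.18 ± 0.10 and did not pass (limma adjusted p = 0.251). Per 100 FPKM of Krt10, Dsg1a stood at 1.24, 1.14 and 1.16 FPKM in the knockout-labelled libraries, against 1.32, 1.17 and 1.45 FPKM in the control-labelled ones, and the groups overlapped. Dsc1 stood at 1.59, 1.23 and 1.43 FPKM per 100 FPKM of Krt10 in the knockout-labelled libraries, against 1.09, 1.09 and 1.19 FPKM in the control-labelled ones, which did not overlap. Cdsn stood at 3.44, 3.59 and 2.90 FPKM in the knockout-labelled libraries, against 3.09, 2.81 and 2.84 FPKM in the control-labelled ones, and the groups overlapped. Krt1, another upper-layer marker, was level, at 0.00 ± 0.10 (limma adjusted p = 0.982). These ratios therefore depend on the keratin chosen, and the FPKM of Dsc1 itself overlapped between the groups.

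Markers of melanocytes, Langerhans and myeloid cells and sebaceous glands fell in the same libraries, unlike those of fibroblasts. Of 5 tested melanocyte markers 4 fell (4 without control 264), with sums of 264 to 296 FPKM in the knockout-labelled and 351 to 437 FPKM in the control-labelled libraries. Of 5 tested Langerhans and myeloid markers 4 fell (2 without control 264), with sums of 24.8 to 27.2 FPKM in the knockout-labelled and 36.0 to 45.8 FPKM in the control-labelled libraries, and Cd207 was under 1 FPKM in every library. Of 6 tested sebaceous markers 5 fell (5 without control 264), with sums of 74.0 to 82.5 FPKM in the knockout-labelled and 136 to 180 FPKM in the control-labelled libraries. In these 3 lists 0 tested markers rose, and their part in the values of the cadherins was not tested.

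**Figure D4:**
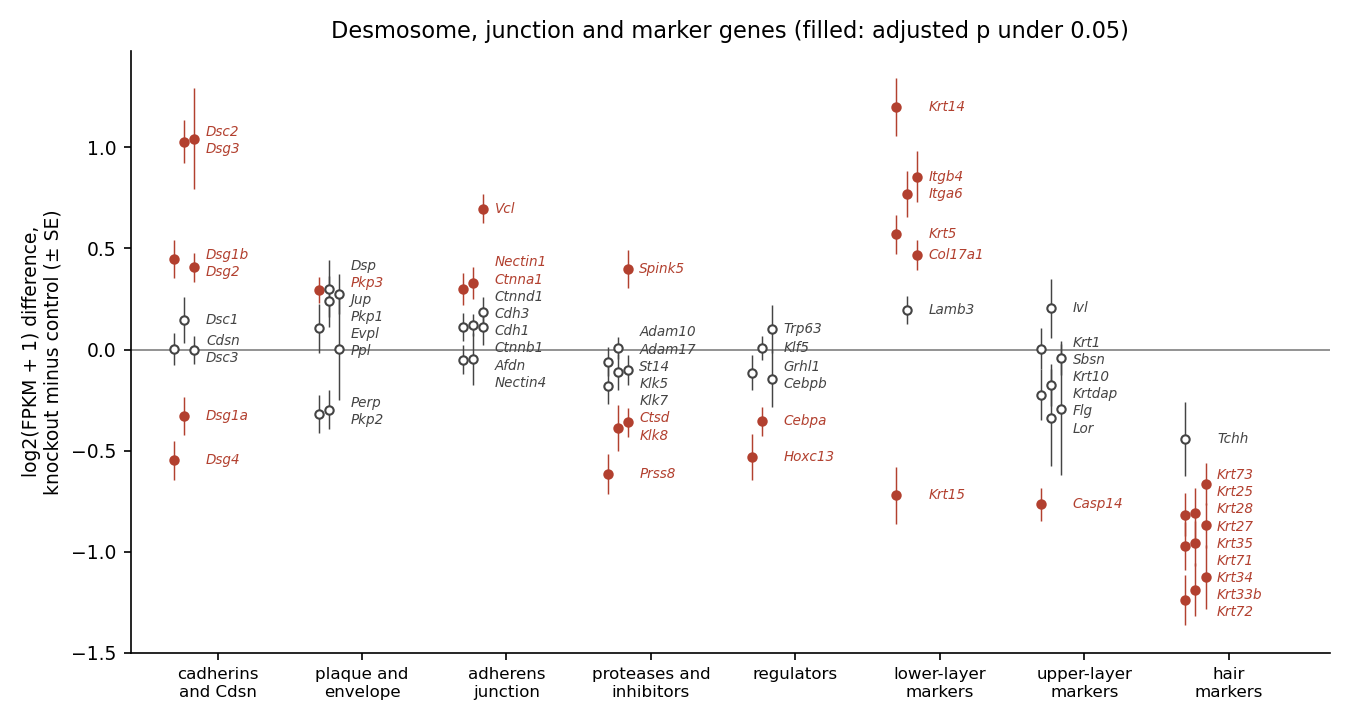
Log2(FPKM + 1) differences, knockout-labelled minus control-labelled, with SE bars, for the tested desmosomal cadherins and Cdsn and for related gene lists and marker lists; filled red points passed an adjusted p of 0.05 (limma). Lower-layer markers other than Krt15 lie above 0, hair markers all below 0, and plaque genes between -0.32 and 0.30. Of the members, Dsg3, Dsc2, Dsg1b, Dsg2 and Dsc1 lie above 0, Dsg4 and Dsg1a below, and Dsc3 and Cdsn near 0.

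Genes nearest in pattern to a called member were sought by the root mean square difference of gene-centred log2(FPKM + 1) values over the 6 libraries. For Dsg3, whose own root mean square deviation was 0.53, these were Ptges, a prostaglandin E synthase, Igfbp6, an IGF-binding protein, and Iffo2, at differences of 0.07, 0.09 and 0.09. For Dsg4 they were Nkd2, Sema4g and Csdc2, at 0.05, 0.05 and 0.06. For Dsc2 they were Rian, Col1a1 and Psca, at 0.17, 0.18 and 0.24. Those of Dsg2 were Tgfb1i1, Ahctf1 and the ceramide synthase Cers3, those of Dsg1a were Atraid, Dera and Mmaa, and those of Dsg1b were Sec24d, Galnt7 and the heat shock gene Hspa1b, all at 0.01 to 0.05. With 6 libraries in 2 groups, a near pattern mostly says that the difference between the groups is of like size.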

How the data were processed

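RNA was extracted from separated epidermis with a column kit and libraries followed a standard Illumina preparation, per the labels' protocols. The authors deposited 1 table of FPKM with a column per library. CASAVA and Cufflinks with GRCm38 were used, per the submitters' processing notes. The sources used here give no tool versions, aligner, annotation or strandedness. Groups came from the sample titles, which match the genotype label.

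The table held 49452 rows. GENCODE M21 (GRCm38) matched 49109 identifiers. The 13500 genes whose mean reached 1 FPKM in at least 1 group were fitted as log2(FPKM + 1) with limma, 3 libraries against 3, letting the prior variance follow intensity. The pseudocount understates changes of low genes, and the filter admits a gene through its higher group alone. P-values are two-sided and Benjamini-Hochberg adjusted over all tested genes. The fit was tested on simulated data. FPKM hold no counts, so no counting error is given. The most common ratio among low values put library depths within a factor of 1.21 of control 261.

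All 10 members are named. From related lists, genes past the threshold and all plaque genes and regulators are named. Cdh1, Cdh3, Klk5, Klk7, Adam10 and Adam17, which did not pass, and the marker genes given singly were named after their values were seen. Members and lists were chosen with earlier results of these data known. The 18 alternatives were 2 pseudocounts, 2 filters, 3 scalings, a length and GC adjustment, 3 variance models, a threshold of 0.10 and each library left out. List counts without control 264 were added after seeing the data. R 4.3.3, limma 3.58.1, Python 3.11.15, pandas 2.3.3 and matplotlib 3.10.9 were used.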

Additional observations from a re-analysis of the deposited data

How the results depend on the processing

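Dsg3, Dsg2 and Dsg4 kept their direction and stayed past the threshold under all 18 alternatives, and no called member changed sign under any of them. The count of members lower was 1 in place of 2 without a filter, after median or trimmed mean scaling and without an intensity trend, and Dsg1a was the member lost each time. The number of members higher stayed at 3 to 5 with all libraries. With single libraries left out it ran from 2 to 4, the number lower from 1 to 2, and the count of all called genes from 1462 to 3784 in place of 3169. Array weights called 6272 genes. The uncalled difference of Dsc3 changed sign to 0.043 (median scaling), 0.070 (trimmed mean scaling), 0.028 (quantile normalization), 0.027 (length and GC adjustment) and 0.037 (array weights), and ran from -0.029 to 0.040 with single libraries left out, turning without 265 or control 264. That of Cdsn changed to -0.067 with array weights and ran from -0.037 to 0.060 with single libraries left out, turning without 263, 265, control 262 or control 264. The cause was not tested. All 6 calls held in the length and GC adjustment. Of the higher share of all called genes, median scaling gave 44.9%, quantile normalization 47.9% and the length and GC adjustment 50.2%, in place of 33.7%. The Dsc3 share of desmocollin FPKM differed by -3.29 percentage points, and by -4.96 to -2.33 with single libraries left out. At 0.435 to 0.829 FPKM, Dsg1c was too low for a comparison, and with no filter it had a limma adjusted p of 0.189. Every library carries its own number and the labels give no litter or pairing, so no paired analysis was made.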
